A study of Homo sapiens with 2 samples.

Results

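Aldo-keto reductases are enzymes that use NADPH to reduce aldehydes and ketones, including steroids, prostaglandins and retinal. The group described here is every probe set of a human expression array whose platform annotation names 1 of 10 genes of this family, counting a probe set shared between AKR1C genes. It held 17 of 54675 probe sets, which named 8 of the 10 genes. No probe set was named for AKR1B1 or AKR1A1 in the annotation used, so those genes are not analysed here. Each of the other 8 genes is described by all of its probe sets, singly.

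The samples were the established prostate cancer cell line C4-2B, which is sensitive to the antiandrogen enzalutamide, and C4-2B-MDVR, a resistant line that was derived from it under prolonged enzalutamide exposure. Both lines were grown in RPMI-1640 with 10% fetal bovine serum and penicillin and streptomycin, and neither was given drug before total RNA was taken, per the labels. Each line was measured on 1 array, so no difference below has a replicate check and no test can be run, and the small number of arrays sets the precision. Whether C4-2B-MDVR is a single clone is not given in the sources used here. One label disagrees: the description field of the resistant sample speaks of TaxR, a docetaxel-resistant line, where its title, source and cell line fields give C4-2B-MDVR. The cell line field was used, and every direction below is that of the array labelled C4-2B-MDVR against the array labelled C4-2B.

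In steroid biology the AKR1C enzymes act at the last steps before and after the androgen receptor. AKR1C3 reduces androstenedione to testosterone and also makes prostaglandin F, while AKR1C1 and AKR1C2 reduce progesterone and dihydrotestosterone to less active products. AKR1C4 and AKR1D1, the steroid reductase that sets the ring shape of bile acids, are best known in liver. The AKR1C genes lie side by side on chromosome 10 and are close copies of one another, and AKR1C1, AKR1C2, AKR1C3 and AKR1B10 are known targets of the stress-response factor NRF2.

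Because some probe sets of the neighbouring genes AKR1C1, AKR1C2 and AKR1C3 were higher in C4-2B-MDVR, promoter windows of the AKR1C genes are shown here. AKR1C4, whose signal was too dim to compare, is shown beside them. Each window holds the 250 bases before a transcription start, 5′ to 3′ on the strand of the gene, from RefSeq on GRCh38.p14. AKR1C1 has its window at chr10:4963165-4963414 on the plus strand and AKR1C2 at chr10:5003858-5004107 on the minus strand. AKR1C3 has 2 starts, at chr10:5048531-5048780 and chr10:5094164-5094413, and AKR1C4 has 1 at chr10:5196587-5196836, all on the plus strand. Capitals mark a run of 12 bases that is present in all 4 windows of AKR1C1, AKR1C2 and AKR1C3.
AKR1C1: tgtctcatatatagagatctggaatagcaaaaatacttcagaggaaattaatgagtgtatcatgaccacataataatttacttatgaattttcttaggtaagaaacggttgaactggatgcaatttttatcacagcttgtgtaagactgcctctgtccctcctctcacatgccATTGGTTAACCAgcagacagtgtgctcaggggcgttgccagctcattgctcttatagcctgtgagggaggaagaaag
AKR1C2: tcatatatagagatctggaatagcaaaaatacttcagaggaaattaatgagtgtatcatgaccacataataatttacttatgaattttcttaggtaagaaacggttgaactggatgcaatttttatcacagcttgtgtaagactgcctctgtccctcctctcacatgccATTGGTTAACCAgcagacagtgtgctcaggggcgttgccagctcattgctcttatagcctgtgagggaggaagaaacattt
AKR1C3 first start: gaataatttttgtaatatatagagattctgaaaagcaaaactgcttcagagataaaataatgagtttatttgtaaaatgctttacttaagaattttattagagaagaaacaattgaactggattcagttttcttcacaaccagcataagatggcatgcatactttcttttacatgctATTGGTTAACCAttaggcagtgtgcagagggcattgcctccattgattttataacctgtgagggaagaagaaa
AKR1C3 second start: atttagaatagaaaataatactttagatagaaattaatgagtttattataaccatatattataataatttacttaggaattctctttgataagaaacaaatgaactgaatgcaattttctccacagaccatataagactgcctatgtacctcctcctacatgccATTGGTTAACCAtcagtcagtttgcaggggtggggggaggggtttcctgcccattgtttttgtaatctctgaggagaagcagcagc
AKR1C4: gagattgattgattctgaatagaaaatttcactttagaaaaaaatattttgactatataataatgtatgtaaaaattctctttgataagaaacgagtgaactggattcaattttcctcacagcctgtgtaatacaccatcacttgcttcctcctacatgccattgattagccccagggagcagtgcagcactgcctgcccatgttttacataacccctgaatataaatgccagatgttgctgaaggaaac

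The windows of AKR1C1 and AKR1C2 were nearly the same sequence. They lie outside the transcripts, so they do not bear on which transcripts the array probes read, and protein and probe sequences were not used here. In a global alignment 245 of 246 aligned bases were identical, all in 1 unbroken run of 245 bases. The windows of AKR1C3 and AKR1C4 were more distant, with 78.0% to 81.1% of aligned bases identical in every other pair, the 2 starts of AKR1C3 included. The shared run ATTGGTTAACCA was absent from the AKR1C4 window and present in 5 of 35097 RefSeq promoter windows of the same length on either strand, which is 0.0142% and includes the 4 shown. It was looked for after the sequences had been seen.

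Motifs were searched by exact letters on both strands. The CCAAT box, CCAAT, was present once in each window of AKR1C1, AKR1C2 and AKR1C3, on the opposite strand and inside the shared run, and in 32.0% of all windows. AKR1C4 had no CCAAT match. The TATA box, TATAAA, matched once in the first AKR1C3 window, on the opposite strand. It also matched once in the AKR1C4 window, on the strand of the gene. On either strand, 10.7% of all windows hold it. TGACNNNGC, the core of the antioxidant response element through which NRF2 acts, had 0 matches in the 5 windows shown (10.9% of all windows hold it). The AP-1-like motif TGANTCA (6.57% of all windows) and the single androgen receptor motif TGTTCT (12.4%) also had 0 matches there, as did the full androgen response element, which 1 of the 35097 windows holds. A letter match is a description of the window and not a measured site. Only the 250 bases before each start were searched, so 0 matches say nothing of sequence farther away. Outside the AKR1C genes, AKR7A2 had 3 matches of TGACNNNGC in each of its 2 overlapping windows, and AKR7A3 and AKR1D1 had 0. No promoter window was available for AKR1B10, so it was not searched.

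Signals of AKR1C1, AKR1C2 and AKR1C3 were higher in C4-2B-MDVR, those of AKR7A2 and AKR7A3 were alike on both arrays, and those of AKR1C4, AKR1B10 and AKR1D1 were too dim to compare. Intensities are the authors' deposited values on a linear scale, and differences are the log2 value of C4-2B-MDVR minus that of C4-2B, so that 1 is a doubling. The detection floor was each array's median intensity, 41.9 on C4-2B and 43.5 on C4-2B-MDVR, and a probe set passed it when its brighter value reached the floor of that array. By this rule 9 of the 17 probe sets were above the floor and 8 were under it on both arrays. Of the 9, 5 were 2-fold or more higher in C4-2B-MDVR, 0 were 2-fold or more lower and 4 lay within 2-fold. Of all 28632 probe sets above the floor, 2.56% were 2-fold or more higher and 4.01% were 2-fold or more lower. The share of members is given beside this background as a description, since the family was chosen with results of these arrays known. In bulk RNA, more cells that express a gene and more RNA per cell cannot be told apart.

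**Figure D1:**
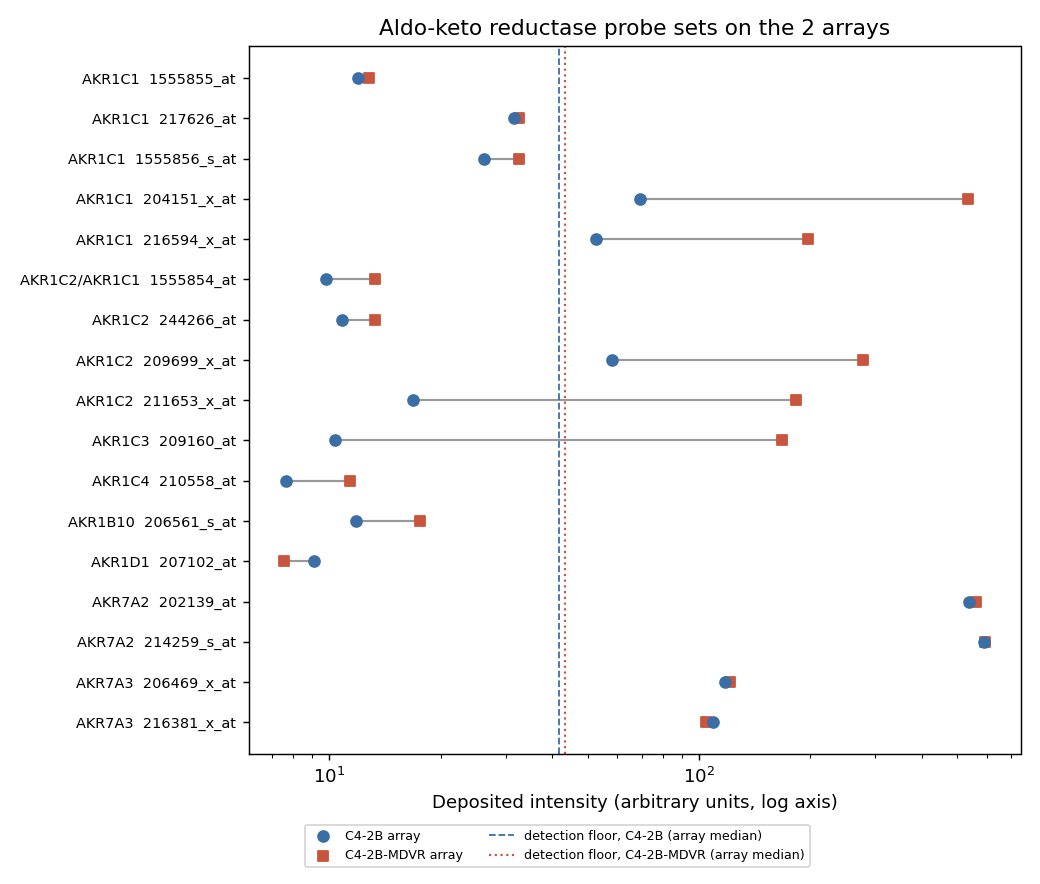
Deposited intensity of each of the 17 probe sets on the C4-2B array (circles) and the C4-2B-MDVR array (squares), on a log axis, with the detection floor of each array as a vertical line. The 5 long lines are 2 probe sets of AKR1C1, 2 of AKR1C2 and 1 of AKR1C3, and the 4 AKR7A2 and AKR7A3 probe sets nearly coincide.

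AKR1C3, the testosterone-forming member, had a single probe set, 209160_at. Its intensity was 10.4 on the C4-2B array and 168.0 on the C4-2B-MDVR array. It was thus under the floor in C4-2B and above it in C4-2B-MDVR. The measured log2 difference was 4.02, and against the C4-2B floor the signal was at least 4.01-fold higher. That bound is 2.00 on the log2 scale. Because the C4-2B value was so low, the size of the difference depends on how low values are treated: with 50 intensity units added to both arrays before taking logs it was 1.85.

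AKR1C1, which inactivates progesterone, had 5 probe sets of its own, and 2 of them were above the floor. On the C4-2B array 204151_x_at read 69.4 and on the C4-2B-MDVR array 534, a log2 difference of 2.94. The probe set 216594_x_at went from 52.7 to 197, a difference of 1.91. Both were above the floor on both arrays, with measured differences of 7.69-fold and 3.75-fold, but their C4-2B values were close to the floor of 41.9. The size of these differences thus also depends on how low values are treated. With 50 intensity units added to both arrays before taking logs, they were 2.29 and 1.27.

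The other 3 AKR1C1 probe sets were under the floor on both arrays. The probe set 1555855_at had intensities of 11.9 and 12.8 in C4-2B and C4-2B-MDVR. For 217626_at they were 31.5 and 32.6, and for 1555856_s_at they were 26.1 and 32.6. These log2 differences were 0.11, 0.05 and 0.32, and at such dim signal they show neither a change nor its absence.

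AKR1C2, which reduces dihydrotestosterone, had 3 probe sets of its own, 2 of them above the floor. For 209699_x_at the intensities were 58.3 in the sensitive and 277 in the resistant line, both above the floor, with a log2 difference of 2.25 or 4.76-fold. The probe set 211653_x_at went from 16.8, under the floor, to 183, a measured difference of 3.45 and at least 4.37-fold. With 50 intensity units added to both arrays, that difference was 1.80, and that of 209699_x_at was 1.60. The third probe set, 244266_at, was under the floor on both arrays, with intensities of 10.8 and 13.3 and a difference of 0.30. The 1 probe set annotated to both AKR1C2 and AKR1C1, 1555854_at, was also under the floor on both, at 9.81 and 13.3, with a difference of 0.43.

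Suffix and brightness coincided in the AKR1C1 and AKR1C2 probe sets. Affymetrix gives the suffix _x_at to probe sets in which some probes also match other sequences. All 4 AKR1C probe sets with that suffix were 2-fold or more higher, and all belong to AKR1C1 or AKR1C2, with differences from 1.91 to 3.45. Of all _x_at probe sets above the floor, 2.22% were 2-fold or more higher. The 5 AKR1C1 and AKR1C2 probe sets without the suffix were all under the floor, and their differences ran from 0.05 to 0.43, so probe design and signal too dim to measure cannot be told apart. Signal of AKR1C1, AKR1C2 and the other AKR1C transcripts may be mixed in the _x_at values, and how much each gene contributed was not tested. AKR1C3 was read by a probe set without the suffix. With all _x_at probe sets left out, a choice made after the data were seen, AKR1C3 was the 1 member gene of the 8 that was 2-fold or more higher, instead of 3. Of the 8, AKR1C4, AKR1B10 and AKR1D1 were too dim to be called with or without those probe sets. Without them, AKR1C1 and AKR1C2 kept only probe sets under the floor, and AKR7A3 kept none.

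**Figure D2:**
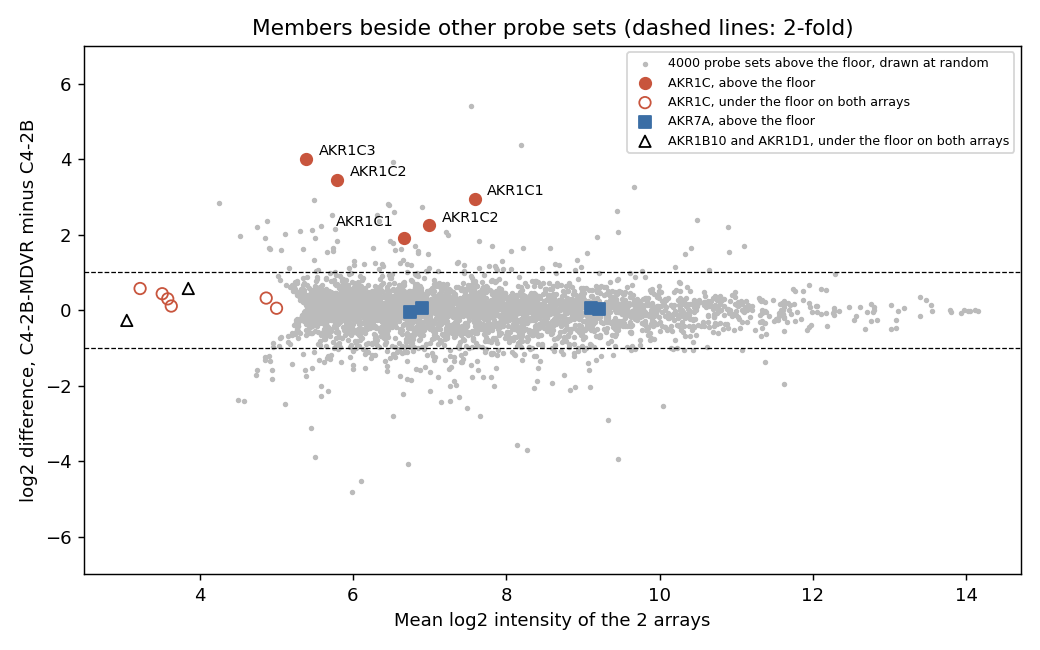
Log2 difference (C4-2B-MDVR minus C4-2B) against mean log2 intensity for the 17 member probe sets and for 4000 probe sets above the floor drawn at random, with dashed lines at 2-fold. Filled red circles are the 5 AKR1C probe sets above the floor, between 1.91 and 4.02 as measured (AKR1C3 and the AKR1C2 point at 3.45 were under the floor in C4-2B), open symbols are members under the floor on both arrays, and blue squares are the AKR7A probe sets close to 0.

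AKR1C4, the liver member of the cluster, read 7.66 in the sensitive and 11.4 in the resistant line in its 1 probe set, 210558_at. AKR1B10, which reduces retinal and other aldehydes, had 11.8 and 17.6 for 206561_s_at. AKR1D1 had 9.10 and 7.53 for 207102_at. All 3 genes were under the floor on both arrays, so their differences of 0.57, 0.57 and −0.27 give no direction, and no fold is stated. For scale, the middle 90% of differences among the 26043 probe sets under the floor on both arrays ran from −0.35 to 0.42. AKR1C4 and AKR1B10 lay beyond the upper end of that span and AKR1D1 lay inside it. The span pooled all levels under the floor and was not matched to signals this dim, so it gives these genes no direction either. Of the 8 member probe sets under the floor, 7 had a difference above 0, against 58.6% of all probe sets under the floor.

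AKR7A2 and AKR7A3, which reduce the dialdehyde of aflatoxin and, for AKR7A2, succinic semialdehyde, were the members with signal in both lines and little difference between them. AKR7A2 had intensities of 537 and 562 in C4-2B and C4-2B-MDVR for 202139_at. Its other probe set, 214259_s_at, had 589 and 595. AKR7A3 had 117 and 121 for 206469_x_at and 109 and 105 for 216381_x_at. The 4 log2 differences ran from −0.06 to 0.07, which is 0.962-fold to 1.05-fold, and the median over all probe sets above the floor was 0.03. Both AKR7A3 probe sets carry the _x_at suffix, so signal from AKR7A2, a close relative, cannot be told apart in them.

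The AKR1C genes were set beside their neighbours in RefSeq gene order on chromosome 10, a comparison added after the member values were known. The 5 measured protein-coding genes on each side were taken, each by its brightest probe set. Of these 10 genes 7 were above the floor, 1 was 2-fold or more higher and 0 were 2-fold or more lower. The one was PFKP, a phosphofructokinase of glycolysis, with intensities of 1052 and 2157 in C4-2B and C4-2B-MDVR and a difference of 1.04. KLF6, a zinc-finger transcription factor, had 168 and 84.7, a difference of −0.99, and stayed inside 2-fold. AKR1E2, the family member next to AKR1C1, had 36.3, under the floor, and 47.6 in its brightest probe set, a difference of 0.39. NET1, on the far side of AKR1C4, had 593 and 594, a difference of 0.0028. Flanking genes above the floor thus ran from −0.99 to 1.04, while the brightest probe sets of AKR1C1 and AKR1C2 were at 2.94 and 2.25 and that of AKR1C3 was at 2.00 or more by its bound. The pseudogene AKR1C6P, with 37.6 and 32.2, was under the floor on both arrays.

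**Figure D3:**
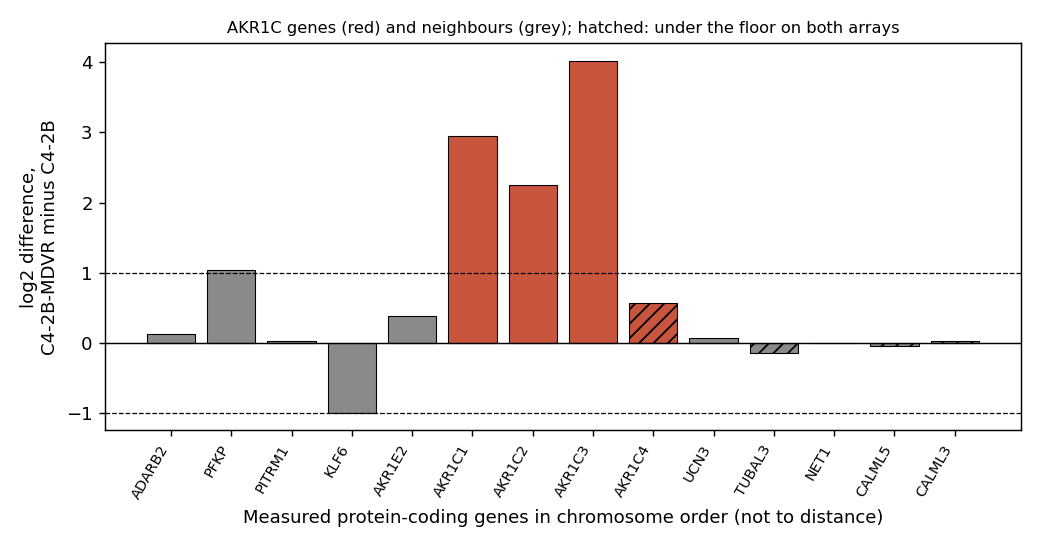
Log2 difference (C4-2B-MDVR minus C4-2B) of the brightest probe set of each measured protein-coding gene around the AKR1C cluster, in chromosome order and not to distance, with dashed lines at 2-fold. The red bars of AKR1C1, AKR1C2 and AKR1C3 stand at 2.94, 2.25 and 4.02, the last of them measured against a C4-2B value under the floor and 2.00 by its bound, the AKR1C4 bar is hatched because it was under the floor on both arrays, and PFKP at 1.04 is the tallest grey bar.

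Over the values of both arrays, the genes whose brightest probe set lay nearest to AKR1C3 were NECTIN3, CD200 and ZNF711, by Euclidean distance on the log2 scale. NECTIN3, a cell adhesion protein, had intensities of 10.9 and 165 and a distance of 0.072. CD200, a membrane glycoprotein, had 8.07 and 193 (distance 0.41). ZNF711, a zinc-finger protein, had 16.4 and 123 (distance 0.79). The likeness rests on 2 values per gene, and the C4-2B value of each was under the floor.

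Partner genes were described by their brightest probe set, in lists that were written with earlier results of these arrays known. The background for these lists is the 13437 named genes above the floor, of which 3.17% were 2-fold or more higher and 3.5% lower, with a median difference of 0.04. Other enzymes that make, convert or inactivate steroid hormones were for the most part within 2-fold. Of 33 listed, 31 were named by the annotation and 21 were above the floor, of which 1 was 2-fold or more higher, 4 were lower, and the median was −0.22. By bounds against the floor, a count added after the data were seen, these were 0 and 2, against 2.76% and 3.14% of the named genes, and in the other lists below the counts by bound were those measured. HSD3B1, which makes androstenedione and so feeds AKR1C3, had intensities of 18.7 and 67.1 in C4-2B and C4-2B-MDVR, at least 1.60-fold higher against the floor. UGT2B28, which conjugates androgens for removal, had 513 and 118, a difference of −2.12. The 1 UGT2B28 probe set above the floor carries the _x_at suffix, so some of its probes also match other sequences. UGT2B17, another androgen conjugating enzyme, had 68.9 and 24.6 and was at least 1.58-fold lower.

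STS, the sulfatase that frees sulfated steroids, had 123 and 50.7, a difference of −1.28, though its 3 probe sets above the floor ran up to 0.05. CYP11A1, the first enzyme of steroid synthesis, had 53.4 and 24.7 and was at least 1.23-fold lower. HSD17B14, a dehydrogenase that can oxidise estradiol, had 65.4 and 123, a difference of 0.91 that stayed inside 2-fold, while its 4 probe sets ran from 0.83 to 1.22. HSD17B3, which also makes testosterone from androstenedione, was under the floor on both arrays, at 31.3 and 31.4.

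Other genes of the NRF2 pathway were mostly within 2-fold by their brightest probe set. Of 31 listed genes outside the family, 29 were named by the annotation and 27 were above the floor, with 0 genes 2-fold or more higher, 1 lower and a median of 0.11. The lower one was ME1, malic enzyme, with 1811 and 702, a difference of −1.37, while a second ME1 probe set that passed the floor gave −2.28. HMOX1, heme oxygenase, came next at 131 and 262, a difference of 0.996 that was just short of 2-fold. GSR, glutathione reductase, had 1111 and 569 (difference −0.96), and SLC7A11, the cystine transporter, had 664 and 391 (−0.76). ABCC1, a drug and conjugate exporter, had 725 and 437 (−0.73), and FTL, ferritin light chain, had 2649 and 4221 (0.67). NFE2L2, which encodes NRF2 itself, differed by −0.23 in its brightest probe set, though its 2 probe sets above the floor ran up to 0.14. KEAP1, the inhibitor of NRF2, differed by −0.36.

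AKR1C3 also forms prostaglandin F, and genes of that pathway included the receptor for this product. Of 21 listed, 12 were above the floor, 1 was 2-fold or more higher, 2 were lower, and the median was 0.03. PTGFR, the prostaglandin F receptor, read 422 in the sensitive line and 10.1 in the resistant line, at least 9.70-fold lower. ABCC4, which exports prostaglandins, had 1706 and 255, a difference of −2.74. PPARG, a nuclear receptor for prostaglandin metabolites, had 58.3 and 221, a difference of 1.92. The enzymes in this list were within 2-fold or dim: PTGES differed by 0.36, PTGDS by 0.32 and PTGS1 by 0.22, with PTGS1 probe sets of up to 1.59, and PTGS2 was under the floor on both arrays.

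Among 28 genes of polyol, aldehyde, carbonyl and retinal metabolism, 24 were named and 20 passed the floor. Of these 2 were 2-fold or more higher and 1 was lower, with a median difference of 0.06. ALDH2, the mitochondrial aldehyde dehydrogenase, had 258 and 1066, a difference of 2.05. DHRS3, which reduces retinal as AKR1B10 does, had 112 and 381, a difference of 1.77. ALDH1A3, which oxidises retinal to retinoic acid, had 159 and 67.6, a difference of −1.23. ALDH3A2, which oxidises fatty aldehydes, and ABAT, of the GABA shunt, differed by 0.79 and 0.67. Their other probe sets above the floor ran down to 0.14 and 0.26. ALDH5A1, which oxidises the succinic semialdehyde that AKR7A2 reduces, differed by 0.64.

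Bile acid synthesis, the pathway of AKR1D1, was little represented. Of 10 listed genes 8 were named and 4 were above the floor, with 0 beyond 2-fold in either direction and a median of −0.55. ACOX2, SLC27A5, AMACR and CYP27A1 differed by −0.96, −0.76, 0.40 and −0.34, though the 2 SLC27A5 probe sets above the floor ran up to 0.08. Of 6 other genes of the aldo-keto reductase superfamily 4 were named, and the 2 above the floor were KCNAB2 and AKR1E2. KCNAB2, a potassium channel subunit, had 145 and 253, a difference of 0.80, while a second probe set above the floor gave a difference of 0. Neither of the 2 was 2-fold or more higher or lower, and the other genes named by the annotation were too dim to be called.

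**Figure D4:**
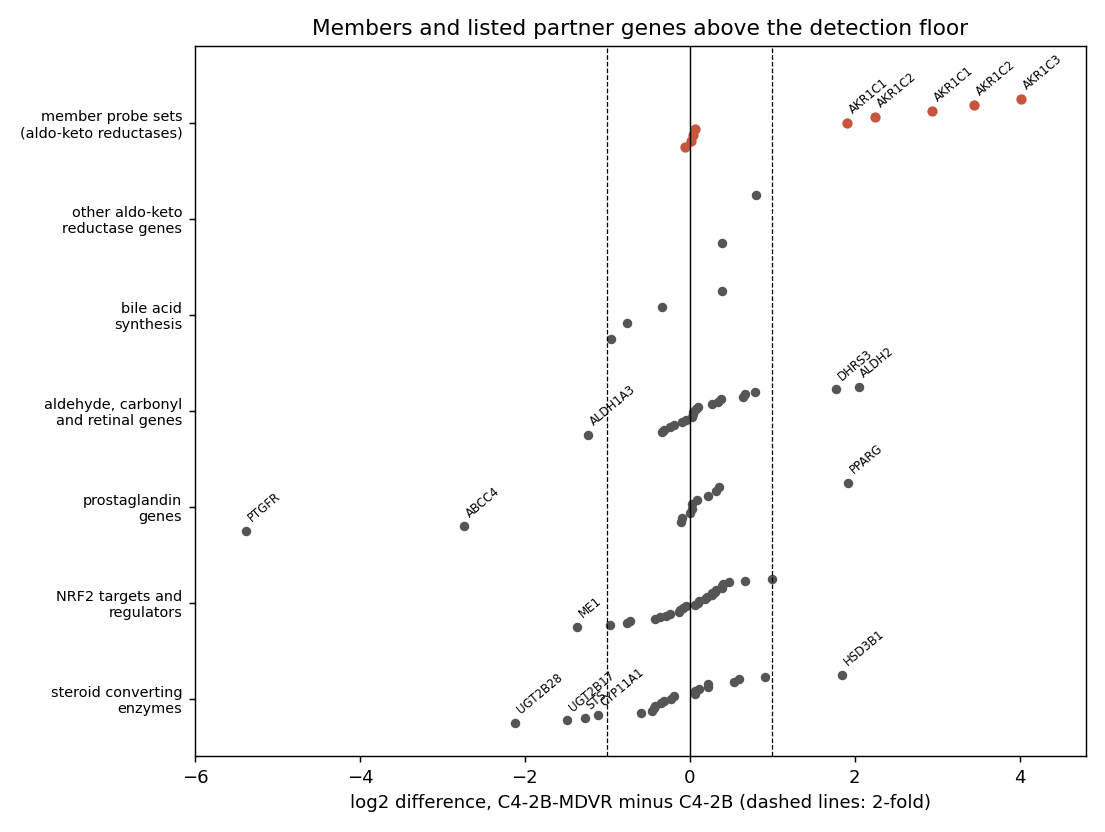
Log2 differences (C4-2B-MDVR minus C4-2B) of the member probe sets above the floor (red) and of the listed partner genes above the floor (grey, 1 point per gene), with dashed lines at 2-fold and names for genes beyond it. Of the partners, HSD3B1, PPARG, DHRS3 and ALDH2 lie beyond 2-fold on the higher side, as measured, with HSD3B1 at a bound of 1.60-fold.

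The identity of the cells was read from markers. Of 10 prostate luminal markers 8 were named and all 8 were above the floor, among them HOXB13 with intensities of 1879 and 1950 in C4-2B and C4-2B-MDVR and KRT18 with 4337 and 4038. KLK3, which encodes prostate-specific antigen and is induced by androgen, had 8379 and 172, and KLK2 had 1263 and 295. Each had 3 probe sets above the floor, with differences from −6.24 to −0.35 for KLK3 and from −2.37 to −0.88 for KLK2. By their brightest probe sets, 2 of the 8 luminal markers were 2-fold or more lower and 0 were higher. Hepatocyte markers, looked at because AKR1C4 and AKR1D1 are liver genes, were above the floor for 2 of 6, TTR and APOA1, with differences of 0.19 and 0.05. ALB, APOA2, SERPINA1 and FGB were under the floor on both arrays. Of basal, fibroblast, and blood and endothelial markers, 1 of 2, 2 of 4 and 2 of 3 named genes were above the floor. By their brightest probe sets, 0 of these were 2-fold or more higher or lower. The fibroblast marker COL1A1 differed by −0.23 in its brightest probe set, though its 3 probe sets above the floor ran up to more than 2-fold higher.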

How the data were processed

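Total RNA, 100 ng per line, was amplified with a whole-transcript kit, labelled with biotin and run on Affymetrix arrays, per the labels' protocols. The authors deposited linear intensity values for 54675 probe sets. How they corrected, normalized and summarized the probes is not given in the sources used here, and log2 was taken with no further step. Names came from a platform annotation dated 2016, which gives 41097 of them 1 symbol, 1801 several and 11777 none. All 16 single-symbol member probe sets matched RefSeq (GRCh38.p14) by Entrez identifier. The floor was each array's median, which the brighter value had to reach, and "at least" divides the brighter value by the floor of the dimmer array. A gene's brightest probe set stood for it. Named genes were all members, up to 6 genes per list by size of difference, and the 3 nearest to AKR1C3. Others (NFE2L2, KEAP1, HSD17B3, PTGS2, markers and neighbours) were named after their values were seen. Members and lists were chosen with earlier results of these data known. Promoters were aligned globally (match 1, mismatch −1, gap opening −2, extension −0.5, free ends). The calling step was tested on simulated data. Alternatives were median centring, quantile normalization, loess (span 0.3), floors at the 25th or 75th percentile or none, raising values to the floor, an offset of 50, thresholds of 1.5-fold and 3-fold, the mean of probe sets, and probe sets with several symbols left out or allowed. Python 3.11.15, numpy 2.4.6, pandas 2.3.3, statsmodels 0.14.6, Biopython 1.88 and matplotlib 3.10.9 were used.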

Additional observations from a re-analysis of the deposited data

How the results depend on the processing

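The counts of 5 member probe sets and 3 member genes 2-fold or more higher, and of 0 lower, were the same under every scaling, floor, offset and threshold tried. The probe-set counts were also the same without probe sets of several symbols, and the gene count with the mean of probe sets or with such probe sets allowed. The 3 genes were AKR1C1, AKR1C2 and AKR1C3, and the other member genes bright enough to be called were AKR7A2 and AKR7A3. Among the 13437 named genes that passed the floor, the share called higher was 3.17%. It is given as a description, because the family was picked with results of these arrays known. Leaving out _x_at probe sets, chosen after the data were seen, gave 1 probe set and 1 gene. The median difference of member probe sets above the floor, 1.91, mixed the AKR1C and AKR7A groups and was 0.45 when the 25th percentile was the floor, 0.32 when there was none and 0.067 without _x_at probe sets, since each of these changes which probe sets enter it. Each of the 17 probe sets kept its call under the 8 alternatives that apply to it, of which the 3 floors leave the difference as it is and change only whether it counts. Ranges for the higher ones were 1.85 to 4.02 for AKR1C3, 2.29 to 2.97 and 1.27 to 1.91 for AKR1C1, and 1.60 to 2.26 and 1.80 to 3.45 for AKR1C2, the lowest each time with the offset of 50. No paired analysis was possible because each line has 1 array. Dim signal limits AKR1C4, AKR1B10 and AKR1D1, and with 1 array per line no error can be given.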
